A study of Homo sapiens with 8 samples.

Results

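The regions described here are stretches of chromosome 18 that were listed as bound by eIF4G2 and that lie at the 3′ ends of transcripts. An antibody against eIF4G2 was used to pull the protein out of immortalized human cardiac fibroblasts (the IHCF line), and the RNA that came with it was sequenced (RIP-seq). All cells had been infected with a lentiviral vector, which carried full-length eIF4G2 in the overexpression group and a scramble sequence in the control group. They grew in medium with serum and insulin, and the labels name no fibrotic stimulus. Total and bound RNA were each sequenced in 2 biological replicates per vector, 8 libraries in all. The regions come from the list for bound RNA of overexpressing cells, and only the authors' name for that table ties it to the condition. The name also contains MOV10, an RNA helicase that the sample labels do not bring up.

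A region was taken as a 3′-end region if it overlapped transcripts of 1 strand only, if the longest of these spanned at least 5000 bp, and if the midpoint of the region lay in the last 10% of that span. Of 1986 regions in the overexpression list, 1339 lie on chromosome 18. Of these, 97 overlapped no transcript, 193 overlapped transcripts of both strands and 15 had only shorter transcripts. This left 1034 eligible regions, of which 291 were 3′-end regions. A further 731 lay before the last 10%, among them 11 with midpoints before the transcript start. The other 12 had midpoints beyond the transcript end and were not counted. The control list held 0 regions on chromosome 18 (1224 on all chromosomes), so no gene below can be compared between the conditions. The list gives positions only, with no read count, score or value per replicate. No statement below therefore has a replicate check or a test, the 95% Wilson intervals cover counting error alone, and regions of 1 gene are not independent.

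The 3′ end of an mRNA holds the untranslated stretch that follows the stop codon, where many proteins and microRNAs bind, and the poly(A) tail. Cap-dependent translation begins at the other end of the message, where eIF4E binds the cap and eIF4G1 links it to the small ribosomal subunit; the poly(A)-binding protein can join both ends through eIF4G1. eIF4G2, also called DAP5, resembles the later part of eIF4G1 but lacks its site for eIF4E, and it is known for initiation that does not need that link. Transcript spans include introns, and exons were not used, so a place in the last 10% does not by itself put a region in an untranslated stretch.

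Regions were more frequent in the last 10% of transcripts than in the other stretches of 10% of the span. It held 28.1% of the eligible chromosome 18 regions (291 of 1034, interval 25.5 to 31.0) and 37.8% of their summed width (189 kb). The stretch of 10% before it held 12.1% (125 regions), the first 10% of the span 9.38% (97 regions), and the lowest share was 4.93% (51 regions), in the fourth stretch. On chromosome 4, the last 10% held 35.0% of eligible regions in the overexpression list (130 of 371, interval 30.4 to 40.0) and 32.3% in the control list (286 of 885, interval 29.3 to 35.5). The intervals of both overlap that of chromosome 18. Counting each of the 169 genes with an eligible region equally, the mean share of a gene's regions in the last 10% was 33.4% and the median share 23.8%.

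**Figure D1:**
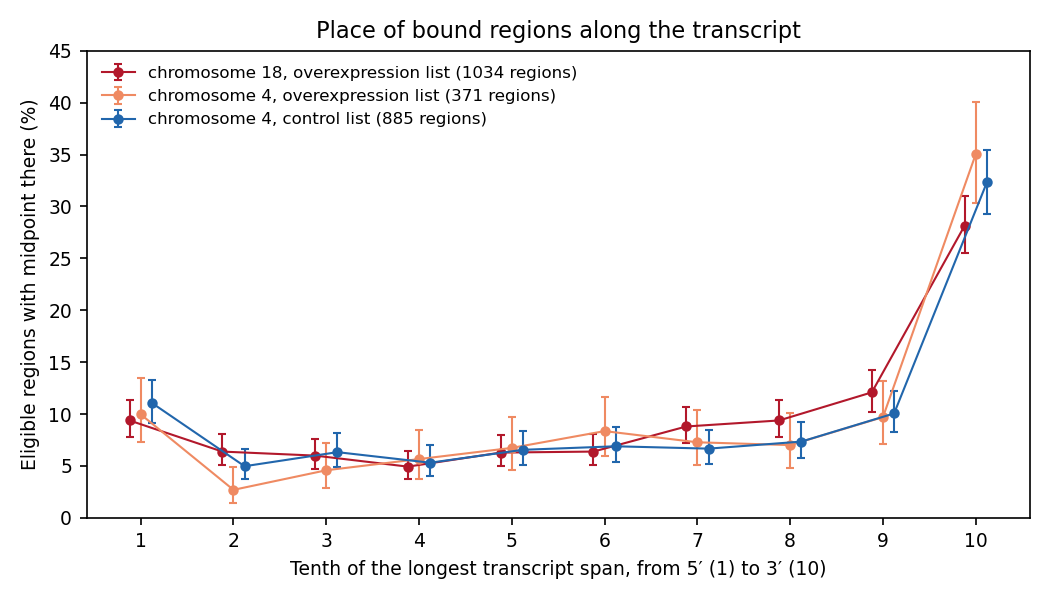
Share of eligible regions (%, points) whose midpoint lies in each 10% of the longest transcript, from 5′ to 3′, with 95% Wilson intervals (bars), for chromosome 18 and chromosome 4 of the overexpression list and chromosome 4 of the control list. All 3 lines are highest in the last 10%, at 28.1%, 35.0% and 32.3%.

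Since the rule places midpoints in the last 10%, distances to the annotated transcript end describe the members and are no finding. The median distance from midpoint to end was 1851 bp (quartiles 707.5 and 4276 bp); 33.7% lay within 1000 bp and 79.7% within 5000 bp. The region itself covered the end of the longest transcript in 56 cases (19.2%, interval 15.1 to 24.2) and the end of any listed transcript in 98 (33.7%, interval 28.5 to 39.3). The 3 nearest midpoints were those of RTTN, a centriole protein gene, at 2 bp, the methyltransferase gene METTL4 at 13 bp and TRAPPC8, of the TRAPP vesicle-tethering complex, at 26 bp. The 3 farthest belonged to long genes, where the last 10% of the span is long. They were 2 regions of ATP9B, a putative lipid flippase (30494 and 29859 bp from the end of a 309 kb span), and 1 of the ubiquitin ligase gene NEDD4L (28388.5 bp, 357 kb span). Just inside the threshold lay regions of ZNF516, COLEC12 and ATP9B (90.01%, 90.03% and 90.13% of the way along), and just outside it regions of TXNL4A, LMAN1 and NAPG (89.95%, 89.90% and 89.73%).

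The width of a region played no part in the choice. The 3′-end regions were wider than those before the last 10%. They had a median width of 335 bp (quartiles 215 and 860 bp), and the 731 regions before the last 10% had a median of 215 bp (215 and 430 bp). Widths of at least 1000 bp were found in 66 of the 291 (22.7%, interval 18.2 to 27.8) and in 56 of the 731 (7.66%, interval 5.95 to 9.82). A wide region reaches a transcript boundary more readily than a narrow one, so the widths of regions that cross one and of those that do not are descriptions, and they do not place the difference. The 3′-end regions that crossed the end (56 of 291) had a median width of 1452.5 bp (quartiles 873.75 and 1920 bp), and 40 of them were at least 1000 bp wide; the 20 regions before the last 10% that crossed a transcript boundary had a median of 480 bp. The 235 that lay wholly inside the transcript had a median of 215 bp (quartiles 215 and 460 bp), the same as the 711 inside regions before the last 10% (quartiles 210 and 430 bp). Of these 235, 11.1% were at least 1000 bp wide (26 regions, interval 7.66 to 15.7), and of the 711, 7.17% (51 regions, interval 5.50 to 9.31). Seen the other way, 25.0% of regions of up to 215 bp were 3′-end regions (129 of 515), against 52.5% of those of 1001 to 2000 bp (52 of 99) and 56.0% of those over 2000 bp (14 of 25). The narrowest regions of chromosome 18 were 205 bp wide and those of chromosome 4 in the same list 400 bp, so the widths of 3′-end regions were not compared between the chromosomes.

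**Figure D2:**
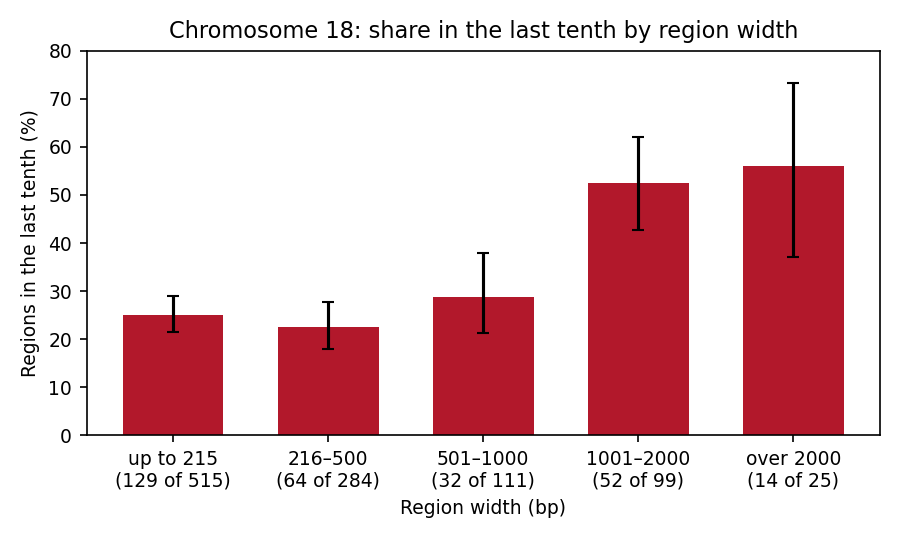
Share (%) of the eligible chromosome 18 regions of each width class (bp) that are 3′-end regions; bars show the share, whiskers the 95% Wilson interval, and the counts stand under each class. The shares lie between 22.5% and 28.8% up to 1000 bp, and at 52.5% and 56.0% above it.

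Every boundary on chromosome 18 fell on 1 of 2 grids, with steps of 205 and 215 bp, and their origin is not stated in the labels or headers. Regions with both ends on the 205 bp grid were 3′-end regions in 24.4% of cases (86 of 353, interval 20.2 to 29.1), those with both ends on the 215 bp grid in 28.2% (115 of 408, interval 24.0 to 32.7). Regions that began on 1 grid and ended on the other were 3′-end regions in 33.0% (90 of 273, interval 27.7 to 38.7). The 3 intervals overlap. A width of 1 step was the commonest form of 3′-end region (129 of 291, 44.3%), and the median of those with both grids was 607.5 bp.

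The 291 regions fell in 102 genes, 98 of them protein-coding in RefSeq. Of all 270 protein-coding genes of chromosome 18, 60.0% had a region of any kind in the overexpression list, and 36.3% had a 3′-end region. There were 20 genes with 1 such region, 36 with 2, 20 with 3 and 26 with 4 or more; the last group held 139 of the 291. Neighbouring 3′-end regions of the same gene were separated by a median of 345 bp, and 154 of 189 such gaps (81.5%) were at most 1000 bp. Before the last 10%, 422 of 592 gaps (71.3%) were that short; gaps between 3′-end regions are bounded by the last 10% of the span, so the rule itself favours short ones and nothing is read from the difference. In 75 of the 102 genes other eligible regions lay before the last 10%, and in 56 of these the widest region of the gene was the one at the 3′ end. The genes had a median span of 67.7 kb, and the 64 genes that had eligible regions before the last 10% and none in it 41.6 kb. The rule uses the span, and the last 10% covers more bases in a longer transcript. The share of eligible regions in the last 10% was 18.8% where the span was 5000 to 25000 bp (28 of 149) and 35.9% where it was above 200000 bp (51 of 142).

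TCF4, which encodes a basic helix-loop-helix transcription factor, had the most 3′-end regions. Its 10 regions summed to 7535 bp out of 14 listed regions. The widest, at chr18:55226836-55229460 (2625 bp), covered the end of the longest transcript, with its midpoint 212 bp inside. A further 4 lay beyond that end and were placed by another TCF4 transcript that ends farther downstream; the largest of these was 2255 bp wide. Of the remaining 5, 1 had its midpoint 2244.5 bp upstream of the end of the longest transcript and 4 had theirs 8494.5 to 11799.5 bp upstream.

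Genes with 5 to 7 regions differed in layout. NDC80, a kinetochore gene, had 6 regions between 3632 and 117 bp from the end, and the 2 widest, of 1025 bp each, were interleaved with narrow ones. MTCL1, which crosslinks microtubules, had 6 regions whose widest (1670 bp) covered the end. In MIB1, a ubiquitin ligase of Notch ligands, the widest of 7 (1505 bp) was the one farthest downstream. Its midpoint lay 830 bp from the end of the transcript that placed it, and it did not cover that end. The MIB1 region over the end of the longest transcript was 385 bp wide and lay farther upstream. In PIAS2, a SUMO ligase gene, none of the 7 regions reached the end of the longest transcript, and their midpoints lay 5252.5 to 9162.5 bp from it. The farthest of them (860 bp) covered the end of another PIAS2 transcript, 100.5 bp from its midpoint. NEDD4L had 1 region of 940 bp at the end and 6 others 10056 to 28388.5 bp upstream. TXNL1, a thioredoxin-like gene, had regions placed by 2 transcripts, 3 by one and 4 by the other. TNFRSF11A, which encodes the receptor RANK, had 7 regions of 205 to 525 bp and no other listed region, so all its regions lay in the last 10%. TXNL4A, a gene of the spliceosome, had 5, of which the widest (3280 bp, chr18:79971321-79974600) covered the end of its longest overlapping transcript.

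The widest single region was that of CCBE1, a secreted factor needed for lymphatic vessels, at chr18:59430936-59436320 (5385 bp), and it covered the transcript end. It made up most of the 5600 bp of the 2 CCBE1 regions in the last 10%, while the 8 eligible regions before it summed to 1745 bp and none of them was wider than 280 bp. CTIF, a partner of the nuclear cap-binding complex in translation, had 1 region of 4515 bp over its end (chr18:48859396-48863910) and 10 before the last 10% that summed to 2910 bp. SS18, a subunit of BAF chromatin remodelling complexes, had a single listed region, of 2945 bp, and ADNP2, a homeobox gene, a single one of 2795 bp; both covered the end. RAB31, a GTPase of vesicle transport, had 2 regions (2795 and 1290 bp). KDSR, an enzyme of sphingolipid synthesis, also had 2 (2150 and 1435 bp), and SLC66A2 had 1 of 2515 bp. In all 7 of these genes the widest region covered the end.

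**Figure D3:**
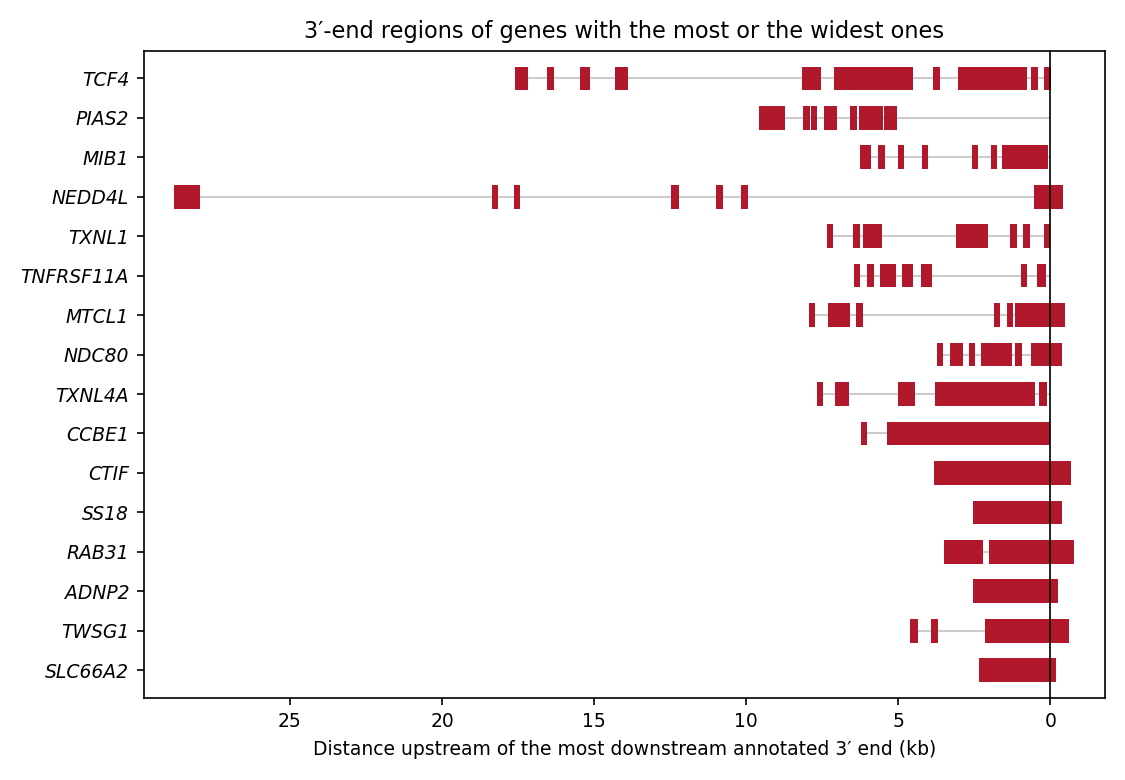
The 3′-end regions (red boxes, drawn to scale) of genes with the most or the widest ones, by distance in kb upstream of the most downstream 3′ end among the transcripts that placed them (vertical line); boxes past the line extend beyond that end. TCF4 shows 10 regions, CCBE1 a region of 5385 bp that reaches the line, and PIAS2 none nearer than 5 kb.

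Genes were also read by role, in 10 groups of chromosome 18 genes (171 genes) written from general knowledge with earlier results of these data known. Of the 171, 82 had a 3′-end region (48.0%). Among all coding genes of the chromosome the share was 36.3%. The groups hold only part of these genes, so each group is set beside the 48.0%, with no test. The shares were not limited to eligible genes. A gene with transcripts under the minimum span, or with regions over both strands only, could have no 3′-end region but stays in the count. How far this shapes the order of the groups was not tested.

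In the group of TGF-beta and BMP signalling, 4 of 7 genes had a 3′-end region. SMAD4, the shared partner of receptor-activated SMADs, had 1 over its end, at chr18:51084431-51085505 (1075 bp). A further 2 regions, at chr18:51050031-51050460 and chr18:51050536-51051150 (1045 bp together), overlap SMAD4 but were placed by an unnamed gene. They lie in the last 10% of that gene's span, far upstream of the SMAD4 end, and are not 3′-end regions of SMAD4. SMAD7, which inhibits the pathway, had 3 regions (1230, 215 and 215 bp) and no other. TGIF1, a repressor that binds SMADs, had regions of 1545, 215 and 1765 bp, the last over its end at chr18:3457201-3458965. TWSG1, a secreted modulator of BMPs, had a region of 2750 bp over its end (chr18:9400276-9403025) and 2 narrow ones. SMAD2 had no 3′-end region by the rule, but 3 of its regions (3655 bp) covered the end of a shorter SMAD2 transcript. SKOR2 and ZNF521 had no region. Over the chromosome, 97 regions in 55 genes likewise lay before the last 10% and covered the end of a listed transcript. For 1 of the 97, the ends covered included that of the longest transcript.

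Of 17 genes for adhesion, matrix and secreted proteins, 7 had a 3′-end region. N-cadherin (CDH2), which joins fibroblasts and muscle cells to their neighbours, had 1 of 1915 bp, with its midpoint 163 bp from the end (chr18:27950861-27952775). EMILIN2, an elastic fibre glycoprotein, had 3 that summed to 2855 bp. The desmosomal cadherin gene DSC3 had 2 (2050 bp), the laminin chain gene LAMA1 2 (1240 bp), the collectin gene COLEC12 2 (830 bp) and CDH20 2 (575 bp), beside CCBE1. Of the desmosomal genes DSC1, DSC2, DSG1, DSG3 and DSG4 none had a region, while DSG2 was overlapped by a listed region but had no 3′-end region.

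Of 23 kinases, phosphatases and other signalling genes, 12 had one, among them the following. The actomyosin kinase gene ROCK1 had 2 in the last 10% (2015 and 330 bp), neither over the end of its longest transcript. The wider one covered the end of another ROCK1 transcript, 656 bp from its midpoint. Another 38 eligible regions (20840 bp) lay before the last 10%, and 2 of these (3390 bp) covered the end of a shorter transcript. The Src-family kinase gene YES1 had 3, widest 1660 bp, and no other region. The tyrosine phosphatase gene PTPN2 had 3 (2420 bp), the phosphatase regulator PPP4R1 3 (1940 bp), the lipid phosphatase gene LPIN2 5 (2335 bp) and CTDP1, a phosphatase of RNA polymerase II, 2 (1710 bp). SOCS6 had 2 (1615 bp), PIK3C3, the class III phosphoinositide kinase of autophagy, 4 (840 bp) and ALPK2 2 (505 bp), beside MIB1 and TNFRSF11A. In the cytoskeletal group 6 of 14 had one: the microtubule end-binding gene MAPRE2 (2 regions, 2810 bp), RTTN (5, 1965 bp), the actin nucleator SPIRE1 (5, 1575 bp), the formin FHOD3 (3, 1550 bp), TPGS2 (3, 710 bp) and the myosin light chain gene MYL12B (2, 615 bp). A further MYL12B region of 1720 bp covered the transcript end but was not counted, since its midpoint lay 104.5 bp beyond it. TPGS2 also had 5 regions before the last 10% (6140 bp) over the end of a shorter transcript.

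Membrane traffic and lipid handling had 13 of 23. The largest sums were those of RAB31 and KDSR, followed by EPG5, an autophagy tether (5 regions, 3210 bp), SLC66A2 and RAB12 (2, 1925 bp). The cholesterol transporter gene NPC1 had 4 (1590 bp), the cargo receptor gene LMAN1 1 (1510 bp), TRAPPC8 3 (1045 bp) and VPS4B, an ATPase of the ESCRT machinery, 2 (980 bp). OSBPL1A (850 bp), RELCH (840 bp), ATP9B (625 bp) and SEC11C, of the signal peptidase (430 bp), were lower. The flippase gene ATP8B1 was overlapped by a listed region but had no 3′-end region by the rule. In the group for ubiquitin and proteolysis 4 of 13 had one: PIAS2 and NEDD4L, the proteasome-associated deubiquitinase gene USP14 (2 regions, 2060 bp) and the proteasome assembly gene PSMG2 (5, 1710 bp).

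In the group of transcription and chromatin, 14 of 31 genes had one. TCF4, SS18 and ADNP2 led, and the others included SETBP1 (2210 bp), the methyl-CpG binding genes MBD2 (5 regions, 2075 bp) and MBD1 (2, 1010 bp), and ELP2 of the Elongator complex (2040 bp). The zinc finger genes ZNF532 (1880 bp), TSHZ1 (1865 bp) and ZNF24 (1435 bp) had 1 wide region each over the end, as did RPRD1A (1290 bp). TAF4B (1230 bp), METTL4 (1055 bp) and ZNF516 (1000 bp) had lower sums. RNA processing and translation had 7 of 13: CTIF, TXNL4A, the RNA-binding ubiquitin ligase gene MEX3C (3 regions, 2290 bp), the asparaginyl-tRNA synthetase gene NARS1 (2, 1880 bp), IMPACT, an inhibitor of the eIF2 kinase GCN2 (2, 1085 bp), the mRNA export gene THOC1 (2, 1010 bp) and C18orf32 (3, 635 bp). C18orf32 is tied to the group only by its readthrough with the ribosomal protein gene RPL17, and without it the count is 6 of 12. A region of 645 bp at the end of the RPL17-C18orf32 readthrough gene also lies over C18orf32.

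Metabolic and mitochondrial genes had the highest share, 11 of 16 (68.8%), and no gene of the group was without a region. ATP5F1A, the alpha subunit of ATP synthase, had 4 (2905 bp), TXNL1 7 (2705 bp), the dipeptidase gene CNDP2 2 (2150 bp), the glycosyltransferase genes GALNT1 (1935 bp) and B4GALT6 (1020 bp) 2 each, and TMX3, an oxidoreductase of the endoplasmic reticulum, 1 of 1845 bp. Malic enzyme ME2 (1410 bp), ABHD3 (1190 bp), the thiolase gene ACAA2 (1110 bp), cytochrome b5 (CYB5A, 420 bp) and ferrochelatase (FECH, 205 bp) completed it. The lowest share was in cell cycle, DNA repair and cell death, 4 of 14 (28.6%): NDC80, the kinetochore gene SKA1 (2 regions, 2525 bp), the DNA end resection gene RBBP8 (3, 1180 bp) and CEP192, a centrosome gene (4, 840 bp). BCL2 had no region. The highest and the lowest share count all genes of their group, including any that the rule could not count.

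**Figure D4:**
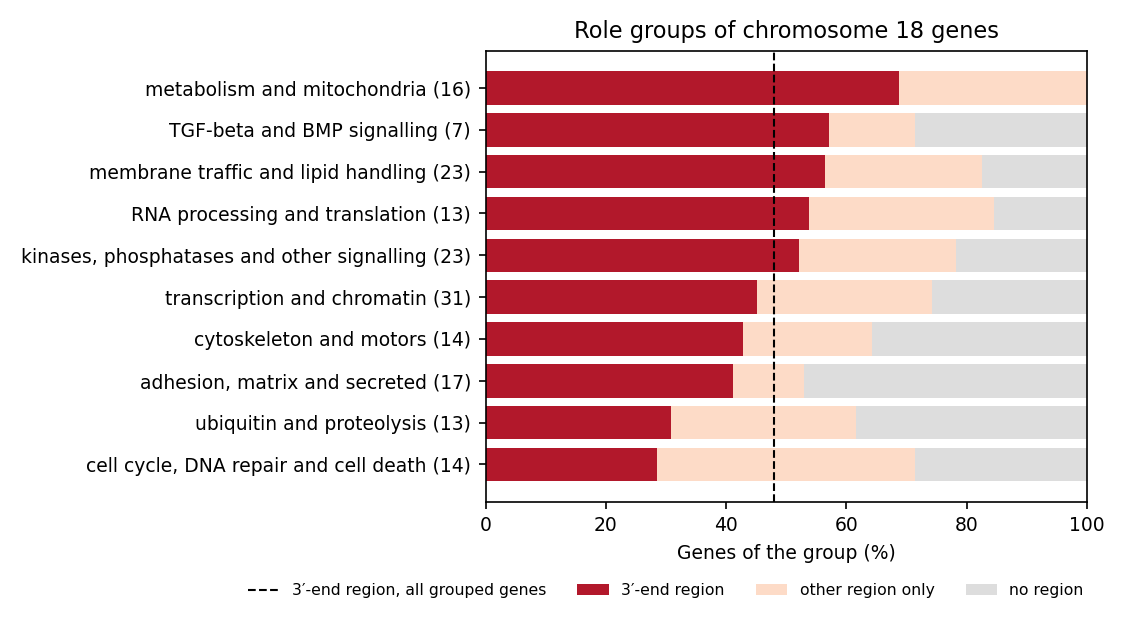
Share of the genes (%) in each role group (number of genes in brackets) with a 3′-end region, with another overexpression region only, or with none; the dashed line is the 48.0% of all 171 grouped genes with a 3′-end region. The shares with a 3′-end region run from 28.6% to 68.8%, with all genes of a group counted, eligible or not.

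Transcripts of 6 pairs of genes with 3′-end regions end within 10 kb of each other on opposite strands. The ends of EMILIN2 and LPIN2 are 996 bp apart, and their regions were separated by 575 bp. HSBP1L1 and TXNL4A overlap at their ends by a few bases, and their regions lie 155 bp apart. The other pairs include USP14 and THOC1, FHOD3 and TPGS2, and KCNG2, a potassium channel subunit gene, and SLC66A2. The 12 genes of all 6 pairs held 38 of the 291 regions. The list gives no strand for a region, so the gene was set by the annotation alone, for these pairs as for all other regions.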

How the data were processed

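Per the submitters' processing notes, reads were handled with bcl2fastq 2.19.0, Trimmomatic 0.36 and HISAT2 2.1.0, and the build is GRCh38. RNA was enriched for poly(A), per the series' design text. How regions were called, whether replicates were pooled and what part total RNA played is not stated. Each of the deposited tables (1 per condition) holds 1-based positions, widths, distances in bp and the transcripts of each region, per the file headers; depth is unknown. The members and gene lists were chosen with earlier results of these data known. Named genes are the 10 with the most 3′-end regions, the largest summed width and the widest region, the 3 nearest, farthest and next to the threshold, and members of the role groups; others were chosen after their values were seen. A gene is that of the longest transcript a region overlaps. Gene types came from RefSeq (GRCh38.p14), by symbol or synonym; 98 genes matched as coding and 2 as long noncoding, and 2 did not match. Neighbouring regions were counted within genes. The rule was tested on simulated regions. No sequence is shown, and 1 gene that the rule names is not reported here. Python 3.11.15, pandas 2.3.3, numpy 2.4.6, scipy 1.17.1 and matplotlib 3.10.9 were used.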

Additional observations from a re-analysis of the deposited data

How the results depend on the processing

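No paired analysis was possible because the lists hold no value per replicate. The planned count of the AATAAA motif was not run, since no genome sequence was used here. With the last 5% of the span the chromosome 18 share was 18.9%, and on chromosome 4 26.1% (overexpression) and 23.8% (control); with the last 20% these were 40.2%, 44.7% and 42.4%. With the shortest transcript the median distance to the end was 697 bp. Placing regions by their downstream end gave 35.6% for the control list of chromosome 4. Merging regions up to 1000 bp apart left 107 3′-end regions, with a median width of 1545 bp and distance of 1564 bp. Regions wholly inside the transcript gave a share of 24.7%, a median width of 215 bp and distance of 2592 bp, and 26.6% for the control list of chromosome 4. Added after the data were seen: the last 2000 bp held 165 regions (16.0%; chromosome 4 21.8% and 19.7%). Regions of at least 400 bp gave 132 (34.3%, and on chromosome 4 35.0% and 33.6%), median width 985 bp and distance 1387 bp. The 205 bp grid alone gave 86 regions (24.4%) in 58 genes, median width 205 bp, and the 215 bp grid alone 115, with a median width of 215 bp and distance of 1366.5 bp. The number of genes stayed within 1.5 times 102 in 14 of 15 settings (74 to 119), the 205 bp grid alone being the exception.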
